A study of Mus musculus with 12 samples.

Results

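The genes described here are Trp53, which encodes the transcription factor p53, and 9 of its known target genes, Mdm2, Ccng1, Gadd45a, Gadd45b, Phlda3, Sesn2, Bax, Bbc3 and Pmaip1, followed by the accessibility of their chromatin. Their members are regions of the union set of accessible regions. A region was taken when it overlapped the protein-coding RefSeq body of a member gene, or when that body was the nearest one within 100 kb. This gave 89 of the 188262 regions, from 2 each at Bax and Phlda3 to 22 at Gadd45a and 25 at Pmaip1. Of the 89, 17 lay no more than 1 kb from where a protein-coding gene begins or ends (called gene end), 10 lay elsewhere in a gene body and 62 lay between genes. Low counts kept 1 Ccng1 region (chr11:40797354-40797922) out of the tests, which left 88. A region carries a gene's name here by position alone, and whether it acts on that gene was not tested.

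The libraries are ATAC-seq, in which the Tn5 transposase cuts and tags open chromatin, of long-term haematopoietic stem cells (LT-HSC) and multipotent progenitors (MPP) from male mice. Wild-type (WT) mice carried a floxed Phf6 allele on their X chromosome and no Cre (Phf6f/Y Rosa26+/+). Knockout (KO) mice carried the deleted allele and 1 copy of a Cre recombinase that tamoxifen switches on, placed at Rosa26 (Phf6-/Y Rosa26+/Cre-ERT2). Each of the 4 combinations gave 3 libraries, and the labels name nuclei from 20000 sorted LT-HSC of individual mice, taken 8 weeks after tamoxifen, in wording that covers both genotypes. The sources used here do not describe how the MPP were prepared. Since all KO and no WT mice had Cre-ERT2, effects of the recombinase and of Phf6 loss cannot be told apart. Replicates are taken as separate mice on wording that the labels give for LT-HSC, and p-values measure the spread between these libraries. In bulk libraries, more cells of a type with an open region cannot be told apart from a more open region in each cell.

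As background, p53 is held at a low level by Mdm2, a ubiquitin ligase that marks it for degradation and is itself a p53 target. DNA damage and other stresses free p53, which then binds pairs of decamer half-sites in its targets. Its targets include genes that halt the cell cycle and genes of the mitochondrial death pathway. In blood stem cells p53 is known for holding cells in quiescence and for removing damaged cells.

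Library totals lay between 22665988 and 48547234 counts, and levels are in CPM, the count scaled to the TMM-corrected library size. Over all 186373 tested regions, 4.74% passed the KO against WT test in LT-HSC and 8.71% in MPP (edgeR quasi-likelihood F test, Benjamini-Hochberg adjusted p under 0.05). The calls in LT-HSC were 6093 higher and 2741 lower with TMM, 3214 higher and 3894 lower with total-count scaling, and 3345 higher and 2710 lower with a loess offset. In MPP they were 9542 higher and 6688 lower with TMM, 7668 and 8383 with total-count scaling, and 8243 and 7813 with a loess offset. Gene-end regions passed more often, 9.17% in LT-HSC and 13.8% in MPP. The share of a library's counts in gene-end regions was 37.8 to 38.9% in WT and 39.2 to 39.6% in KO LT-HSC, and 39.2 to 41.0% in WT and 41.0 to 41.4% in KO MPP. Sums over marker and handling genes, here and below, take only the strongest region of each gene (highest mean CPM over the 12 libraries). In WT, 8 LT-HSC marker genes summed to 217 to 231 CPM in LT-HSC and 150 to 156 CPM in MPP. The 5 MPP marker genes summed to 94.2 to 101 CPM in LT-HSC and 140 to 148 CPM in MPP. Of 10 tested regions at Phf6 itself, 1 passed in MPP, where it was higher in KO, and none in LT-HSC. No Phf6 region passed as lower in KO, and log2 fold changes ranged from -0.17 to 0.65 in LT-HSC and -0.43 to 0.79 in MPP. The strongest region, at a gene end, ran from 27.7 to 29.7 CPM in KO MPP, below the 30.6 to 32.4 CPM of WT MPP. Its log2 fold change was -0.14 there (adjusted p = 0.195) and 0.05 in LT-HSC (0.724). These regions thus do not check the deletion, and the sources used here do not name the deleted exons.

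The promoters are shown because 4 of the regions that passed a genotype test cover a start site and p53 binds some of these genes near their start. RefSeq promoter windows of GRCm38.p6, from 250 bases before to 50 bases after a start, matched 9 of the 10 genes (11 windows, 3 of them at Bbc3). Pmaip1 had no match. A p53 half-site, an exact match to the known p53 decamer (a pattern that is its own reverse complement), was found in 5 of 11 windows and in 8.36% of all 32851 windows. In the following sequences, 5′ to 3′ on the gene's strand, capitals mark the half-sites and, at Ccng1, a pair. The windows are chr11:69580109-69580408 on the plus strand for Trp53, chr10:117710709-117711008 on the minus strand for Mdm2 and chr11:40755237-40755536 on the minus strand for Ccng1. They are chr6:67037358-67037657 on the minus strand for Gadd45a, chr7:45466849-45467148 on the minus strand for Bax and chr7:16310011-16310310 on the plus strand for Bbc3, which has no half-site in any window.
Trp53: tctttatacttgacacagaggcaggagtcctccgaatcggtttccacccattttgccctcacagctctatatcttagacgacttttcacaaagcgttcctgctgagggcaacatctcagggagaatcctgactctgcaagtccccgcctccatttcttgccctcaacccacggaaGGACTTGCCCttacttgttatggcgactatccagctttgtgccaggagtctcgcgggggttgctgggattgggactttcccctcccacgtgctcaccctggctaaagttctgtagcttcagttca
Mdm2: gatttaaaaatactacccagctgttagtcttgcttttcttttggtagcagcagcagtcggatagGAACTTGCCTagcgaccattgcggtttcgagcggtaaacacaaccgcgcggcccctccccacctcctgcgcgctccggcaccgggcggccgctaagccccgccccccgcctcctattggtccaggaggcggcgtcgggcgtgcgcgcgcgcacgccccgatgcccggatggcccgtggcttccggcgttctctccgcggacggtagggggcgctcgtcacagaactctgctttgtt
Ccng1: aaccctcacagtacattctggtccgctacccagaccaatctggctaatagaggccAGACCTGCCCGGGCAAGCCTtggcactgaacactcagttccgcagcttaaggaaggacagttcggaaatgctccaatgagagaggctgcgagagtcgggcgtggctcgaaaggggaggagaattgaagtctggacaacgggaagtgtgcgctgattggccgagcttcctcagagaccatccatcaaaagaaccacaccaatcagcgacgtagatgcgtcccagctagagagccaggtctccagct
Gadd45a: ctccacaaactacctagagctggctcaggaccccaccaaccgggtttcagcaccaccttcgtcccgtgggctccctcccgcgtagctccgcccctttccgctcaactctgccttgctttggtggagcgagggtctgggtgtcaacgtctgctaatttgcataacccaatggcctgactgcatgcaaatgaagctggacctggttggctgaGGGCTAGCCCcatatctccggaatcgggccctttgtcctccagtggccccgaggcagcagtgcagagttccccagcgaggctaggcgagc
Bax: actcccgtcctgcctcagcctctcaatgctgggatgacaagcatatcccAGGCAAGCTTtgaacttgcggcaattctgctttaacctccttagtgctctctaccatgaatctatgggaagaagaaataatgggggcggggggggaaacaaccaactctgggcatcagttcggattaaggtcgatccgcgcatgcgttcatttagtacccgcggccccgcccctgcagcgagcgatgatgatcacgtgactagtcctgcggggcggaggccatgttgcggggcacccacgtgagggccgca
Bbc3: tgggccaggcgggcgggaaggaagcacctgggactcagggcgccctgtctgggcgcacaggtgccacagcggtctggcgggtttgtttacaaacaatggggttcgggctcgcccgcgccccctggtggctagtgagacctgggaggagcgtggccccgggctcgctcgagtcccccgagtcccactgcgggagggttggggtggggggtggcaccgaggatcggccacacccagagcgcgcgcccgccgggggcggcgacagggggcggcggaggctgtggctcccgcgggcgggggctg

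The Ccng1 window held 2 adjacent decamers, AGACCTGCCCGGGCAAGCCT, of which 1 matches exactly and the other is 1 base off the pattern. Such a pair, with at most 1 base off in 1 decamer and the central C and G of both decamers kept, was found in 22 of the 32851 windows (0.067%). The exact decamer, GGGCAAGCCT, began 185 bases before the start, inside the accessible region. The half-sites of Trp53 (GGACTTGCCC, 75 bases before the start), Mdm2 (GAACTTGCCT, 186 bases) and Gadd45a (GGGCTAGCCC, 40 bases) also lay inside an accessible region. That of Bax (AGGCAAGCTT, 201 bases before the start) lay outside the region called there. The member windows had a median of 64.7% G and C and 24 CpG, against 52.7% and 7 over all windows. GGGCGG, the core of GC boxes, was found on either strand in 9 of 11 windows and 35.7% of all, and CCAAT in 7 of 11 and 37.4% of all. These are matches of letters, and binding was not measured.

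Start-site accessibility ranged widely between the genes. Levels are compared per kb of region here, for the region that covers a start or, at Pmaip1, for its strongest gene-end region. Gadd45a, a stress sensor that arrests growth, was the most open of the 10 in each group, at a mean of 182 CPM per kb in WT LT-HSC, KO LT-HSC and WT MPP and 177 in KO MPP. Its libraries did not overlap those of the next gene in any group. In WT LT-HSC the order below it was Sesn2 at 98.6, Gadd45b at 91.7 and Ccng1 at 88.6, each overlapping the next. Mdm2 followed at 58.5, then Trp53 at 34.3 and Phlda3 at 32.9, which overlapped. Bax at 24.3, Pmaip1 at 22.2 and Bbc3 at 22, the genes of the death pathway, came last. Pmaip1 overlapped both Bax and Bbc3, which did not overlap each other. The place of Bbc3 depends on the scaling to length, as its region is 963 bp long. In plain CPM it held 21.2, near Phlda3 (21.6) and above Trp53 (15.7), Bax (11.2) and Pmaip1 (11). In KO MPP, Mdm2 stood at 100 CPM per kb, Bax at 44.3 and Bbc3 at 39.2, and Pmaip1 at 35.1 and Phlda3, a repressor of Akt signalling, at 33.9 came last and overlapped.

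**Figure D1:**
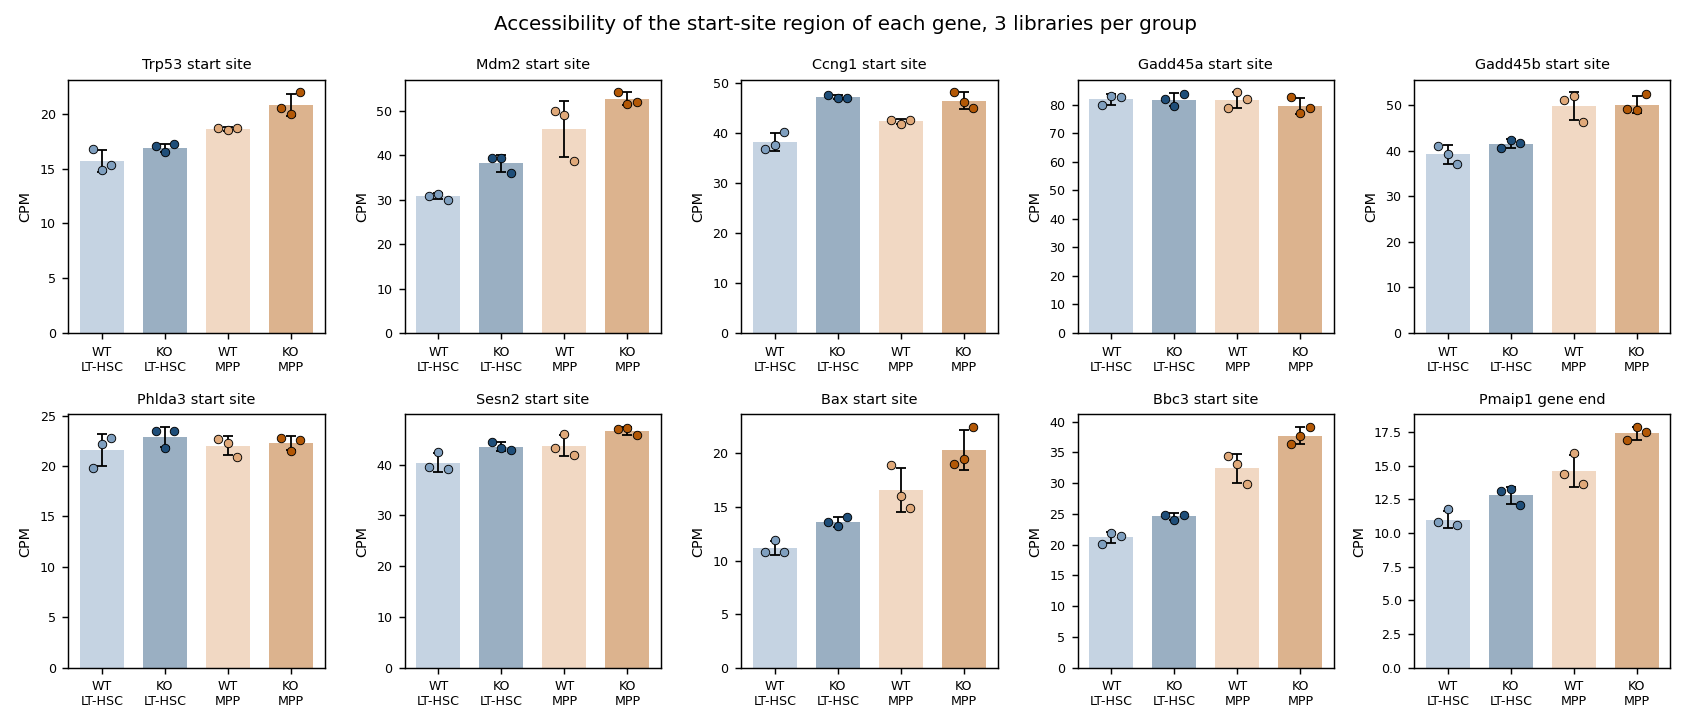
CPM of the region that covers the start site of each gene (for Pmaip1, its strongest gene-end region) in the 4 groups; bars are means, whiskers SD and points the 3 libraries. Gadd45a and Phlda3 lie level across the groups, while Mdm2, Bax and Bbc3 step up from WT LT-HSC to KO MPP.

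The comparison of KO with WT LT-HSC addressed how the stem cells differ with genotype, that is with Phf6 loss and Cre-ERT2 together. Of the 88 member regions, 8 were higher in KO and 0 lower, or 9.09% against 4.74% of all regions (3.27% higher and 1.47% lower). Those 8 lay at 7 of the 10 genes, with none at Bax, Gadd45b and Phlda3. Of the 17 gene-end members 5 passed (29.4%), all of them higher, against 9.17% of all gene-end regions (8.2% higher). The median log2 fold change of the 88 was 0.06, against 0.00 over all regions, and the KO and WT libraries did not overlap in 22 of 88, against 24.2% of all regions. The share of regions without overlap was thus near that of the whole table.

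At Trp53, 1 of 4 regions passed. It is the strongest of the gene (chr11:69581275-69581723) and its centre lies 1.14 kb downstream of the start. It held 22.8, 22 and 23.4 CPM in WT and 26.6, 26.4 and 28.4 CPM in KO LT-HSC. The groups did not overlap, and the log2 fold change was 0.25 ± 0.07 (SE, adjusted p = 0.0291). The call was lost in 9 of 22 alternatives, among them leaving out WT replicate 1 or 2 or any KO LT-HSC library (adjusted p 0.0646 to 0.118). The region over the Trp53 start itself (chr11:69580079-69580535) held 15.7 ± 1 CPM in WT and 16.9 ± 0.368 in KO LT-HSC (SD, n = 3) and did not pass (adjusted p = 0.435). It also overlaps the neighbouring gene Wrap53.

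Mdm2, the inhibitor of p53, was higher at its start region (chr10:117710539-117711064). WT LT-HSC held 30.9, 31.4 and 30 CPM and KO LT-HSC 39.3, 39.4 and 36.0 CPM. All 3 KO libraries stood above all 3 WT libraries, a 1.24-fold difference (log2 0.31 ± 0.07, adjusted p = 0.0114). Without KO LT-HSC replicate 1 or 2 the adjusted p was 0.0550 or 0.0665, and 0.366 when the fit took the gene-end share of each library as a covariate. None of the other 8 Mdm2 regions passed.

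Ccng1 encodes cyclin G1, a p53 target that brings a phosphatase to Mdm2. Its start region (chr11:40755109-40755538), which covers the pair of half-sites, held 36.7, 37.5 and 40.1 CPM in WT and 47.6, 47.0 and 46.9 CPM in KO LT-HSC. The KO libraries were higher without overlap, by 0.31 ± 0.06 on the log2 scale (adjusted p = 0.00239), and the call was kept in all 22 alternatives. A weak region 20.4 kb upstream (chr11:40775416-40775924) held 1.23, 1.10 and 1.10 CPM in WT and 1.82, 2.16 and 1.92 CPM in KO. It was 1.71-fold higher (log2 0.78 ± 0.20, adjusted p = 0.0231), but not without WT replicate 2 or 3 or KO replicate 2 or 3 (0.0520 to 0.108).

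Bbc3 encodes Puma, a BH3-only protein that triggers mitochondrial death. A region inside its gene body (chr7:16308510-16308970) lies 0.843 kb upstream of the nearest start among the promoter windows. The body itself begins at chr7:16308398. The region held 4.85, 4.41 and 5.01 CPM in WT and 6.33, 6.69 and 7.62 CPM in KO LT-HSC. This was 1.44-fold higher in KO (log2 0.52 ± 0.11, adjusted p = 0.00365), and the call was kept in all 22 alternatives. At Pmaip1, which encodes the BH3-only protein Noxa, an intergenic region 5.78 kb from the gene (chr18:66471342-66471780) held 2.55, 1.94 and 2.43 CPM in WT and 3.39, 3.86 and 3.07 CPM in KO. It was higher by 0.58 ± 0.16 on the log2 scale (adjusted p = 0.0295), and without WT replicate 2 or KO replicate 1 or 2 the adjusted p was 0.128, 0.0728 and 0.147.

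Sesn2 encodes Sestrin 2, which restrains mTORC1 under stress. A region 4.48 kb upstream of its start (chr4:132514706-132515163) held 6.40, 6.24 and 6.19 CPM in WT and 8.18, 9.13 and 8.86 CPM in KO LT-HSC, 1.39-fold higher (log2 0.47 ± 0.11, adjusted p = 0.0131). Without KO replicate 2 the adjusted p was 0.0722, and with the gene-end covariate 0.246. The neighbouring region at chr4:132515423-132515881, the strongest at this gene, held 47.2 ± 1.59 CPM in WT and 51.9 ± 1.10 in KO and did not pass (adjusted p = 0.169).

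At Gadd45a, the region 1.28 kb downstream of the start (chr6:67035908-67036347) held 11, 11 and 9.35 CPM in WT and 12.6, 13.6 and 13.9 CPM in KO LT-HSC. The difference was 0.35 ± 0.10 (log2, adjusted p = 0.03), and without WT replicate 3 or KO replicate 2 or 3 the adjusted p was 0.119, 0.109 and 0.102. The far stronger start region (chr6:67037238-67037687) held 79.7, 83.0 and 82.7 CPM in WT and 81.9, 79.4 and 83.8 CPM in KO. These overlapped, with a log2 fold change of 0.00 ± 0.05 (adjusted p = 0.990). The start regions of Gadd45b, a stress and cytokine induced relative, and of Phlda3 also overlapped, at 0.08 ± 0.06 (adjusted p = 0.490) and 0.08 ± 0.07 (0.563). The Bax start region held 11.2 ± 0.664 CPM in WT and 13.6 ± 0.480 in KO without overlap but did not pass (log2 0.28 ± 0.09, adjusted p = 0.0743).

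Measures of the libraries moved with genotype as well. The strongest regions of 20 immediate early and heat shock genes, which cell handling can induce, summed to 1122 to 1293 CPM in WT and 1350 to 1366 CPM in KO LT-HSC. Of all 304 regions of these genes, 78 were higher and 1 lower (26% called). LT-HSC markers summed to 217 to 231 CPM in WT and 234 to 245 CPM in KO, and erythroid markers to 87.6 to 91.9 and 96.4 to 100 CPM, both without overlap. The sums of the MPP, B cell, T cell and granulocyte and monocyte markers overlapped, and no marker gene was at 0. Over all regions, 1843 of 186373 passed in LT-HSC in the fit with the gene-end covariate, against 8834 without it. The share used as covariate comes from the same counts, did not overlap between WT and KO LT-HSC and ran higher in KO MPP. A fit with it therefore cannot fully separate the share from genotype and has less power to call a genotype difference. In the fit with the covariate, 3 member regions passed in LT-HSC, the Bbc3 region and both Ccng1 regions. Of the lost calls, the log2 fold change was 0.43 at Gadd45a (0.35 without the covariate) and 0.66 at Pmaip1 (0.58), against 0.15 at Mdm2 (0.31), 0.33 at Sesn2 (0.47) and 0.20 at Trp53 (0.25). The Trp53, Gadd45a and Pmaip1 calls were also lost with total-count scaling (adjusted p 0.0613 to 0.0851) and with a loess offset (0.0587 to 0.139). The part of cell handling and of cell type makeup in the member differences was not tested.

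In MPP the same comparison gave 11 higher and 1 lower of 88, or 13.6% against 8.71% of all regions (5.12% higher and 3.59% lower). The 11 lay at Bax, Bbc3, Gadd45a and Pmaip1, and the 1 lower region at Pmaip1. Trp53, Mdm2, Ccng1, Gadd45b, Phlda3 and Sesn2 had no call. Apoptosis genes had 6 higher and 1 lower of 32 regions (21.9%), and the genes of growth arrest and survival 5 higher of 43 (11.6%). The median log2 fold change of the 88 was 0.15, against -0.01 over all regions, and the groups did not overlap in 31 of 88, against 28% of all. Of 17 gene-end members 3 passed (17.6%), all of them higher, against 13.8% of all gene-end regions (11.4% higher).

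The lowest adjusted p in MPP was inside the Bbc3 body, 3.58 kb downstream of the nearest start (chr7:16313778-16314238). WT MPP held 21.7, 21.1 and 19.5 CPM and KO MPP 28.2, 26.2 and 28.8 CPM, 1.33-fold higher without overlap (log2 0.41 ± 0.07, adjusted p = 0.000547, kept in all 22 alternatives). In LT-HSC the same region held 21.4, 21.7 and 20.1 CPM in WT and 21.0, 19.6 and 18.8 CPM in KO, a log2 fold change of -0.09 ± 0.07 (adjusted p = 0.558). The 9 libraries other than KO MPP thus lay between 18.8 and 21.7 CPM, below all 3 KO MPP libraries. The difference between these 2 genotype effects was 0.50 ± 0.10 and did not pass over the whole table (interaction adjusted p = 0.127).

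The Bbc3 start region (chr7:16309857-16310819) held 34.4, 33.1 and 29.8 CPM in WT and 36.4, 37.6 and 39.2 CPM in KO MPP. It was higher by 0.22 ± 0.07 (log2, adjusted p = 0.0355), and the call was lost in 8 of 22 alternatives. These included leaving out WT or KO MPP replicate 2 or 3 (0.0640 to 0.157). Bax encodes the pore protein that opens the mitochondrial membrane. Its start region (chr7:45466603-45467061) held 18.9, 16.0 and 14.9 CPM in WT and 19.0, 19.5 and 22.5 CPM in KO MPP. It was higher in KO (log2 0.29 ± 0.09, adjusted p = 0.0318), with KO replicate 1 close to WT replicate 1, and not without WT or KO MPP replicate 2 or 3 (0.0635 to 0.219) nor with the gene-end covariate (0.567). With a loess offset the adjusted p was 0.0591 at the Bax start and 0.0724 at the Bbc3 start.

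At Pmaip1 the region 5.78 kb from the gene, called in LT-HSC, was also higher in KO MPP. It held 5.49, 3.81 and 5.45 CPM in WT and 7.45, 7.48 and 7.25 CPM in KO, 1.52-fold higher (log2 0.60 ± 0.13, adjusted p = 0.00308, kept in all 22 alternatives). The strongest gene-end region (chr18:66458288-66458784) held 14.4, 15.9 and 13.6 CPM in WT and 16.9, 17.9 and 17.5 CPM in KO, with an adjusted p of 0.0484 that was lost in 13 of 22 alternatives (highest 0.347), leaving out any MPP library but WT replicate 2 among them. Of 2 weak intergenic regions, that 28.3 kb away (chr18:66429680-66430275) was higher, from 0.487 to 0.932 CPM (log2 0.95 ± 0.28, adjusted p = 0.0284). That 68.4 kb away (chr18:66533993-66534429) was the 1 lower member, from 0.967 to 0.447 CPM (log2 -1.07 ± 0.30, adjusted p = 0.0241). Leaving out single MPP libraries took the first to 0.0636 to 0.170 (any but KO replicate 1) and the second to 0.0558 to 0.162 (WT replicate 3, KO replicate 1 or 3).

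Gadd45a held 5 of the calls in MPP, all higher in KO and none at its start. The region 1.28 kb downstream of the start held 5.19, 6.15 and 5.82 CPM in WT and 7.99, 9.11 and 8.36 CPM in KO MPP, 1.49-fold higher (log2 0.57 ± 0.10, adjusted p = 0.000741, kept in all 22 alternatives). It and the Pmaip1 region at 5.78 kb were the 2 members called in both populations. The region 65.4 kb upstream (chr6:67102484-67103194) held 2.08, 1.98 and 2.03 CPM in WT and 2.69, 3.28 and 2.94 CPM in KO (log2 0.56 ± 0.15, adjusted p = 0.0171). The 3 others lay 8.17, 19.8 and 21.5 kb upstream, with group means of at most 1.65 CPM in KO MPP and log2 fold changes of 0.96, 0.71 and 0.87 (adjusted p 0.0258, 0.0346 and 0.0210). Each of these 4 upstream calls was lost without KO MPP replicate 2 or 3 and without at least 1 WT MPP library (0.0535 to 0.170). The start region held 81.7 ± 2.77 CPM in WT and 79.5 ± 2.81 in KO MPP, which overlapped (adjusted p = 0.687).

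Mdm2 and Trp53 did not pass in MPP. The Mdm2 start region held 49.9, 49.1 and 38.7 CPM in WT and 54.3, 51.6 and 52.1 CPM in KO (log2 0.19 ± 0.07, adjusted p = 0.0806), and WT replicate 3 was low among its group. That library also had the lowest gene-end share of the 6 MPP libraries, 39.2%. The Ccng1 start region held 42.3 ± 0.444 CPM in WT and 46.4 ± 1.67 in KO MPP (log2 0.13 ± 0.06, adjusted p = 0.154). The strongest regions of the handling genes summed to 1252 to 1351 CPM in WT and 1395 to 1468 CPM in KO MPP. Of all 304 regions of these genes, 67 were higher and 2 lower (22.7% called), and the part of handling was not tested here either. MPP markers summed to 140 to 148 CPM in WT and 131 to 136 CPM in KO MPP, erythroid markers to 71.2 to 79.7 and 81.6 to 85.9 CPM, and LT-HSC markers to 150 to 156 and 156 to 167 CPM. The B cell, T cell and granulocyte and monocyte sums overlapped, and the part of cell type makeup was not tested. Over all regions, 5614 of 186373 passed in MPP with the gene-end covariate, against 16230 without it. With the covariate 3 members passed in MPP, the Bbc3 body region, the Gadd45a region 1.28 kb downstream and the Pmaip1 region at 5.78 kb. The log2 fold changes of the lost calls were 0.12 at the Bax start, 0.11 at the Bbc3 start, 0.19 at the Pmaip1 gene end and 0.45 at the Gadd45a region 65.4 kb upstream, each smaller than without it. Those of the other lost calls were 1.05, 0.87 and 0.96 at the Gadd45a regions 8.17, 19.8 and 21.5 kb upstream and 1.11 and -1.13 at the Pmaip1 regions 28.3 and 68.4 kb away, each larger in size.

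**Figure D2:**
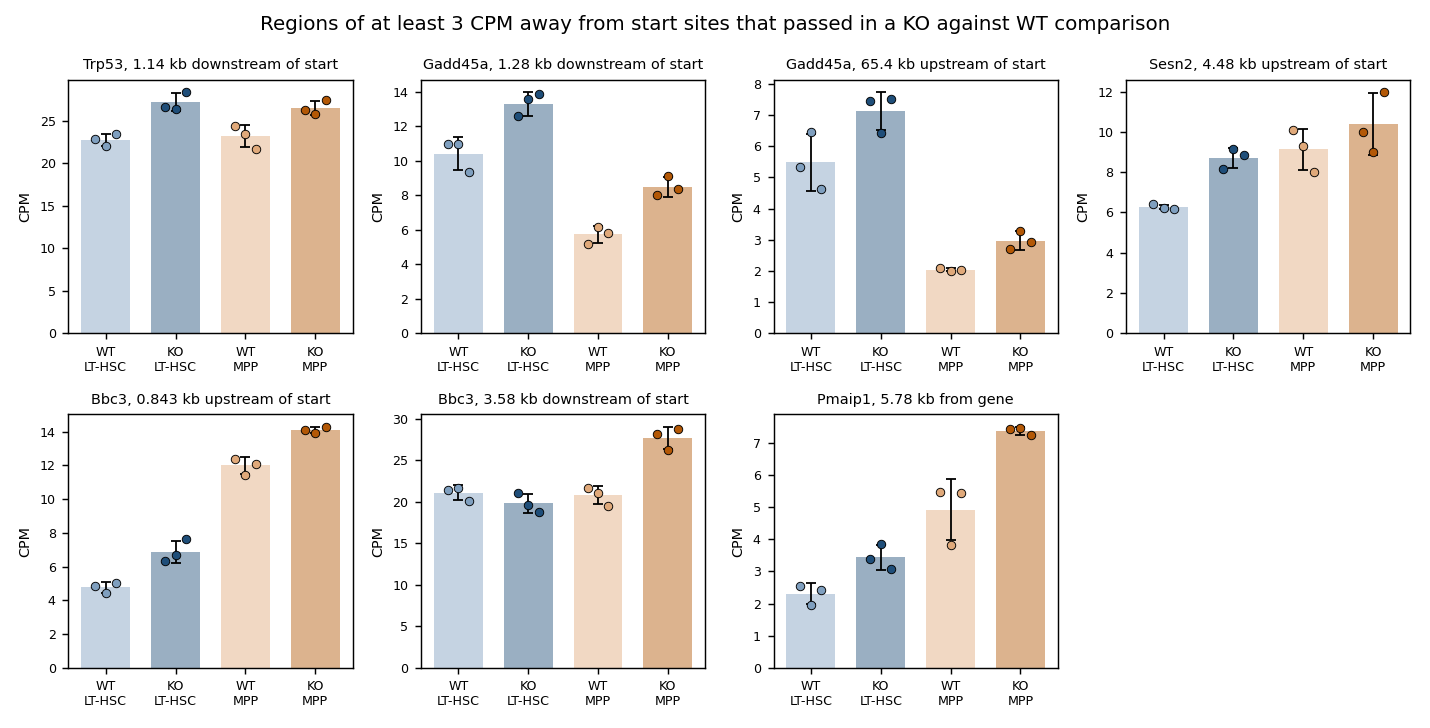
CPM of the 7 regions away from start sites that passed in at least 1 KO against WT comparison and averaged at least 3 CPM; bars are means, whiskers SD and points the 3 libraries. The Bbc3 region 3.58 kb downstream passed in MPP and not in LT-HSC, while the Gadd45a region 1.28 kb downstream and the Pmaip1 region passed in both populations.

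Whether the genotype effect differed between LT-HSC and MPP was tested by the interaction. None of the 88 members passed with edgeR, and 0.00805% of all regions did. At an unadjusted p under 0.05 there were 13 members, against 7.56% of all regions. DESeq2 called 1 member, the Bbc3 body region, as did 3 other alternatives, and limma-voom called 0. The 8 members called in LT-HSC had the same sign in MPP, as did 94.1% of all regions called there. Of the 12 called in MPP, 9 had the same sign in LT-HSC (75%, against 90.9% of all). The 3 exceptions were the Bbc3 body region and the Gadd45a regions 8.17 and 21.5 kb upstream, which in LT-HSC had log2 fold changes of -1.13 ± 0.51 and -0.60 ± 0.50.

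**Figure D3:**
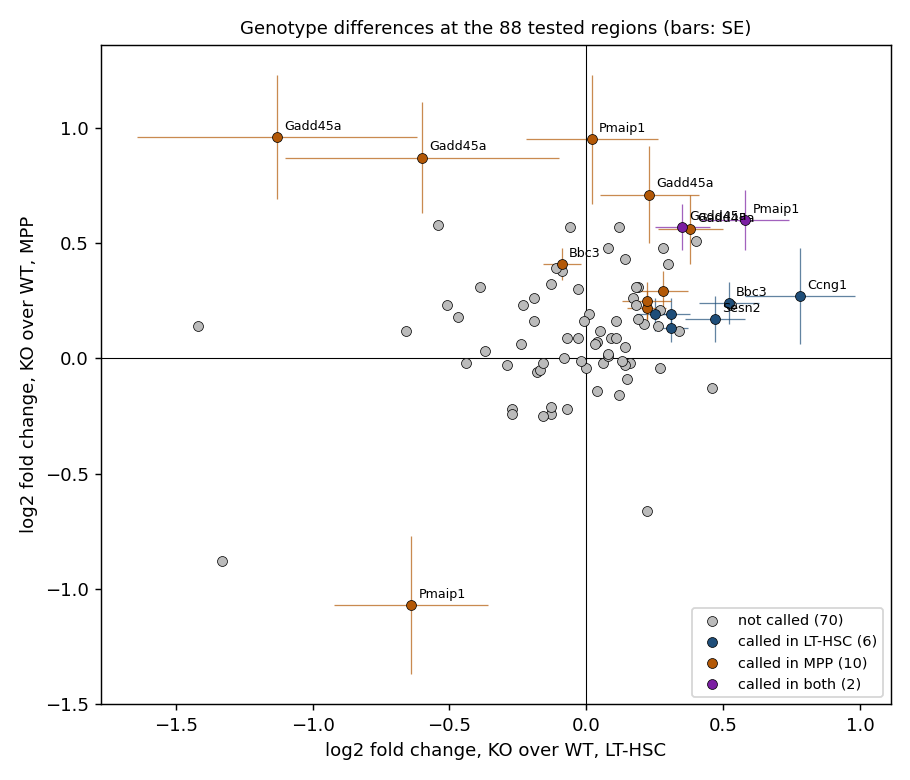
Log2 fold change of KO over WT in LT-HSC (x axis) and in MPP (y axis) at the 88 tested regions, with SE bars and names at called regions. The 8 regions called in LT-HSC lie above 0 on both axes, and the Pmaip1 region at lower left is the 1 member called lower in KO.

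More members passed between populations than between genotypes. In WT, 50 member regions were higher and 19 lower in MPP than in LT-HSC, 78.4% of 88 against 69.8% of all regions. In KO 50 were higher and 18 lower, 77.3% against 67.7% (33.3% higher and 34.4% lower over all regions). The libraries of the populations did not overlap at 68 members in each genotype, against 70.5% of all regions in WT and 71.1% in KO. The direction was the same in both genotypes for 63 regions (71.6%, against 60.4% of all), 48 higher and 15 lower in MPP, and no member passed in opposite directions. These 2 comparisons use different libraries. Over all regions the WT calls were split into 34.6% higher and 35.2% lower, whereas 56.8% of the members were higher and 21.6% lower.

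Of the 9 regions over start sites, 6 were higher in WT MPP and 0 lower (66.7%, against 69.8% of all regions). None differed by 2-fold or more, and their median absolute log2 fold change was 0.25 (largest 0.62, at Bbc3). Among the other 79, 38 differed by 2-fold or more, with a median of 0.93 and a largest value of 3.35. Trp53 rose slightly at its start, from 15.7 to 18.6 CPM (log2 0.25 ± 0.07, adjusted p = 0.00384). It also rose 5.65 kb downstream (chr11:69585807-69586214), from 7.69, 8.03 and 9.41 CPM in WT LT-HSC to 12.4, 14.5 and 11.7 CPM in WT MPP (log2 0.62 ± 0.10, adjusted p = 1.28e-06). The Mdm2 start rose from 30.8 ± 0.677 to 45.9 ± 6.24 CPM (log2 0.58 ± 0.07, adjusted p = 2.06e-08). The Gadd45a start did not pass, at 0.00 ± 0.05. However, 1 of 22 alternatives called it lower in MPP, in WT as in KO, and the lowest log2 fold change among the alternatives was -0.21 in each.

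The death genes had 21 higher (65.6%) and 5 lower (15.6%) of 32 regions in WT MPP, against 34.6% and 35.2% of all regions. Most of the higher ones lay at Pmaip1, which had 17 higher and 3 lower of 25 regions in WT. Bbc3 had 3 higher and 1 lower of 5, and Bax 1 higher and 1 lower of 2. The 4 largest gains of Pmaip1 lay past the end of the gene with the higher chromosome position. The region 2.26 kb from the gene (chr18:66467815-66468275) held 1.20, 1.24 and 1.42 CPM in WT LT-HSC and 11.6, 9.92 and 10.4 CPM in WT MPP, 8.24-fold higher (log2 3.04 ± 0.14, adjusted p = 1.91e-18). In KO the same region held 0.908, 0.637 and 0.891 CPM and 12.1, 9.75 and 12.9 CPM, 14.1-fold higher. The region 10.1 kb away (chr18:66475661-66476122) rose from 0.228 to 2.33 CPM in WT, the largest change among the members there (log2 3.35 ± 0.28). The Bbc3 region inside the gene body, 0.843 kb upstream of the nearest start among the promoter windows, rose 2.51-fold in WT. It went from 4.76 to 12 CPM (log2 1.33 ± 0.10, adjusted p = 1.61e-13). The Bax start rose from 11.2 to 16.6 CPM (log2 0.57 ± 0.09, adjusted p = 1.50e-06), a call lost with the gene-end covariate (0.132). Lower in WT MPP were a Bbc3 region 9.76 kb upstream (chr7:16299608-16300035), from 24.3 to 15.9 CPM (log2 -0.61, adjusted p = 2.99e-08), and the strongest Bax region (chr7:45460803-45461263), from 26.3 to 23.3 CPM with overlap (log2 -0.17, adjusted p = 0.0461).

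Gadd45a and Gadd45b moved in both directions. Of 22 Gadd45a regions 11 were higher and 8 lower in WT MPP, 86.4% called against 69.8% of all regions. The lowest p was at its far upstream region (chr6:67134819-67135670), which fell from 5.39, 5.56 and 5.07 CPM to 1.58, 1.86 and 1.49 CPM (log2 -1.68 ± 0.14, adjusted p = 3.61e-12). Gadd45b had 7 higher and 2 lower of 9 regions in both genotypes, against 69.8% of all regions called in WT and 67.7% in KO. Its region 5.39 kb downstream of the start (chr10:80935280-80935693) held 1.84, 1.40 and 2.37 CPM in WT LT-HSC and 7.94, 8.02 and 8.63 CPM in WT MPP (log2 2.13 ± 0.14, adjusted p = 2.04e-14). At 1.31 kb downstream (chr10:80931199-80931612) it fell instead, from 5.10 ± 0.749 to 1.34 ± 0.0846 CPM (log2 -1.93 ± 0.16, adjusted p = 2.52e-12).

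At Sesn2, the region in the body 15.7 kb downstream of the start (chr4:132494492-132494980) held 3.56, 4.13 and 5.18 CPM in WT LT-HSC and 19.9, 18.8 and 16.3 CPM in WT MPP, 4.29-fold higher (adjusted p = 3.33e-17). Ccng1 and Phlda3 had strong losses. The Ccng1 region 7.83 kb upstream (chr11:40762898-40763339) fell from 2.01 to 0.292 CPM (log2 -2.74 ± 0.25, adjusted p = 1.94e-11). The Phlda3 region 5.24 kb downstream of the start (chr1:135771086-135771563) fell from 5.56, 5.37 and 6.25 CPM to 0.952, 1.06 and 1.29 CPM (log2 -2.40 ± 0.16, adjusted p = 8.77e-15). Neither group of libraries overlapped in either region, and both losses were called in KO as well.

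**Figure D4:**
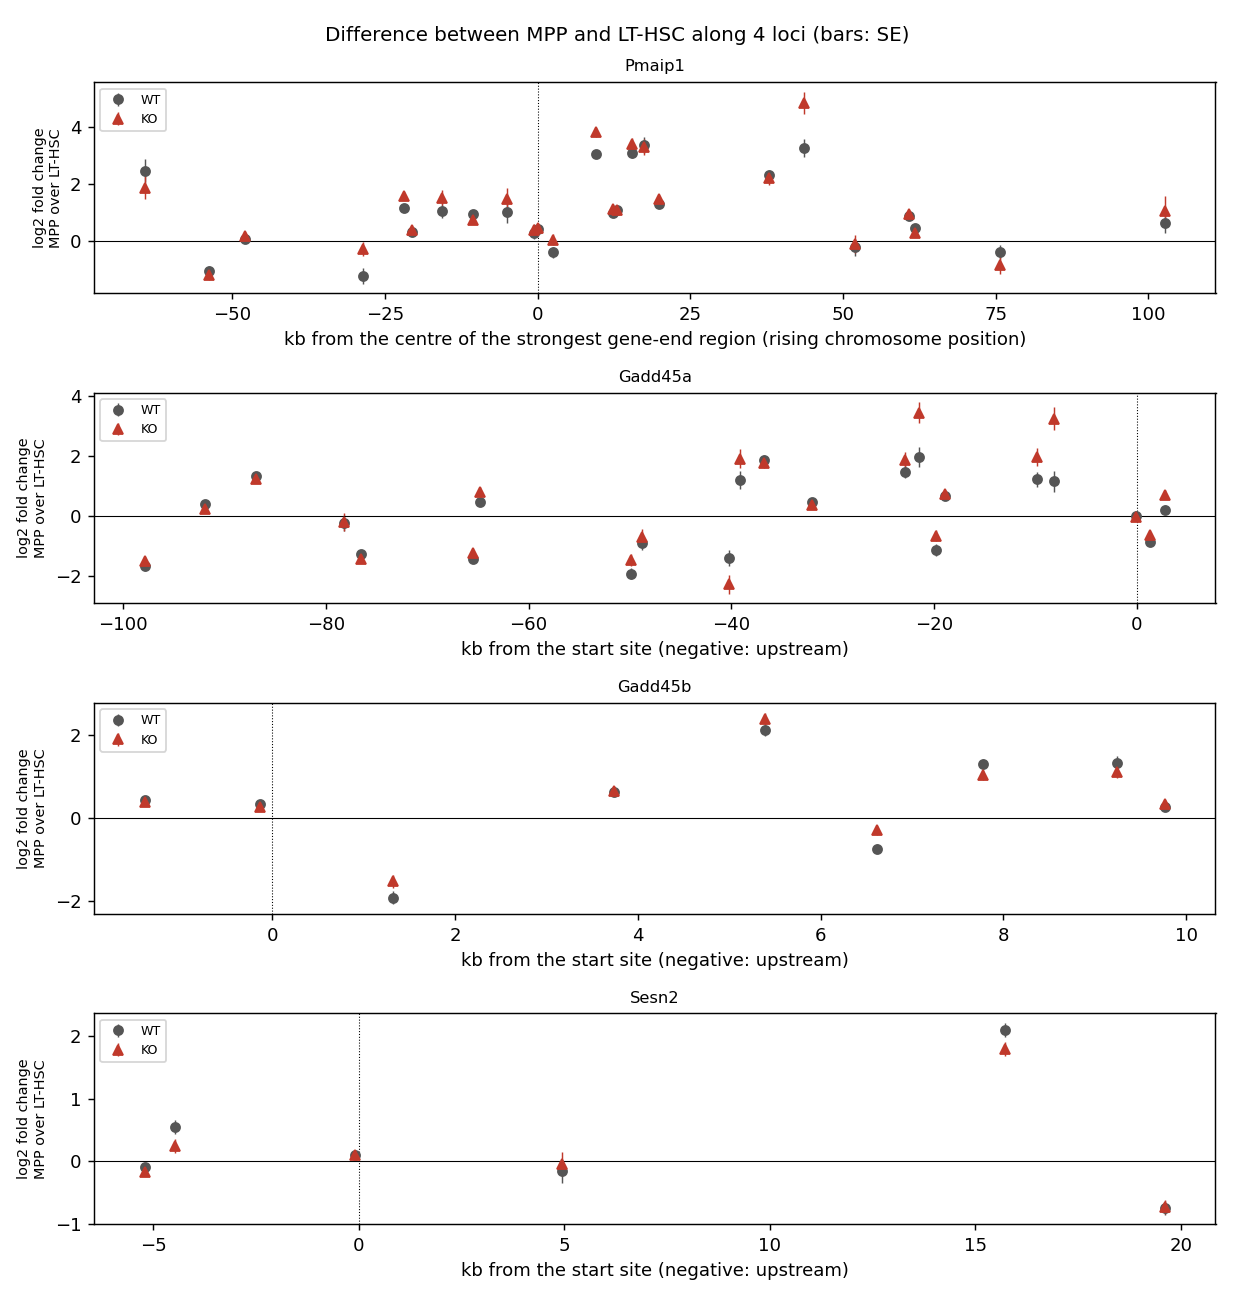
Log2 fold change of MPP over LT-HSC in WT and KO, with SE bars, by distance in kb from the start (for Pmaip1, from its strongest gene-end region) at the tested regions of Pmaip1, Gadd45a, Gadd45b and Sesn2. The largest gains in WT lie to the right at Pmaip1, reaching 3.35, while Gadd45a shows 11 gains and 8 losses in WT among its 22 regions.

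The genes whose strongest region followed a member most closely over the 12 libraries were sought among 15587 genes, as a description that shares libraries and depth. For Trp53 they were Rbm15 (Pearson r = 0.971), Dcaf4 (0.968) and Rpl22l1 (0.962). For Mdm2 they were Exosc5 (0.991), Pgghg (0.991) and Pole4 (0.989).

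The wider pathway gave a background list of 41 other regulators and targets with 430 regions, 429 tested. In LT-HSC 16 were higher and 3 lower in KO (4.43%, against 4.74% of all regions), and in MPP 32 higher and 11 lower (10%, against 8.71%). Both shares lie near that of the whole table. Btg2, an antiproliferative p53 target, was higher in its body (chr1:134077577-134078040) in both populations. It went from 6.94 ± 1.05 to 10.3 ± 0.531 CPM in LT-HSC (log2 0.57 ± 0.10, adjusted p = 0.00156). In MPP it went from 15.3 ± 1.66 to 20.8 ± 0.558 CPM (0.44 ± 0.09, adjusted p = 0.00247). Btg2 and the member Gadd45b are also immediate early genes and were left out of the handling genes above. The part of handling at Btg2 was not tested. Mdm4, the partner of Mdm2 in restraining p53, had an intergenic region (chr1:133033692-133034154) that was higher in both, from 8.70 to 12.5 CPM in LT-HSC (0.51 ± 0.10, adjusted p = 0.00381) and from 8.52 to 14.0 CPM in MPP (0.72 ± 0.10, adjusted p = 5.46e-05). In LT-HSC the kinase gene Chek2, the sestrin gene Sesn1 and Perp, a membrane protein of the death response, were higher at 1 named region each. The differences were 0.93, 0.84 and 0.46 on the log2 scale. The Chek2 region was weak, at 0.905 CPM in WT and 1.73 CPM in KO. In MPP the kinase genes Plk2 and Hipk2, Gadd45g and the receptor gene Eda2r were higher at 1 named region each, by 0.44, 0.68, 0.41 and 0.83. The Eda2r region was weak as well, at 1.21 CPM in WT and 2.17 CPM in KO. With the gene-end covariate the calls at Btg2 in MPP, Gadd45g and Perp were lost (adjusted p 0.0666, 0.0638 and 0.292). That at Perp was also lost without KO LT-HSC replicate 1. The regions lower in KO lay at Cdkn1a, Gadd45g and Trp53inp1 in LT-HSC. In MPP they lay at Cop1, Gadd45g, Hipk2, Perp, Rchy1, Rrm2b, Trp63 and Xpc. Gadd45g and Hipk2 thus had calls in both directions in MPP, and Perp was higher in LT-HSC and lower in MPP at different regions.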

How the data were processed

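The authors deposited 1 table of raw counts of reads in a union set of regions for 12 libraries, with each region's coordinates and length (a measure of another kind). Per the submitters' processing notes reads were handled on GRCm38 with DESeq2 1.22.1, MACS2 2.1.1, featureCounts, Bowtie2 and cutadapt, named in no order. The sources used here do not give settings, filters or how the union set was made. Every count column matched a sample through the labels' descriptions, and no column was left unmapped.

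From the deposited counts, 186373 regions passed filterByExpr and 1889 did not. One model with a mean per group was fitted on all 12 libraries with edgeR 4.0.16 (TMM, quasi-likelihood F test, 2-sided) in R 4.3.3, and p-values were adjusted by Benjamini-Hochberg over all regions within each comparison, with a threshold of 0.05. The biological coefficient of variation was 8.18%. Levels are CPM on TMM-scaled library sizes, with SD over 3 libraries, and log2 fold changes carry their SE. The procedure was tested on simulated data. Gene bodies, names and promoter windows came from RefSeq (GRCm38.p6). The table used gives no exons, introns or UTRs, and no strand for Pmaip1, so these are not stated. DESeq2 1.42.0 and limma-voom (limma 3.58.1) were alternatives, beside other scalings, filters, sample sets, a replicate block, a gene-end covariate, other assignment distances, a threshold of 0.01 and leaving out each library.

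The members and lists were chosen with earlier results of these data known. Named regions were each gene's strongest region and strongest gene-end region, every member region called in a genotype comparison or the interaction, and each gene's region with the lowest p between populations in WT. Of the wider pathway and the handling genes, up to 6 called regions with the lowest p per comparison could be named. A few other regions were named after their values were seen: those over the Trp53 start, at Bbc3 9.76 kb upstream, at Gadd45b 1.31 kb downstream and at Pmaip1 10.1 kb from the gene. The most alike genes were taken among strongest regions of at least 5 CPM. By the check made, replicate numbers did not consistently pair the samples across genotype. Across population each library correlated best with its own number, but the sources used here state no pairing. The fit without a block is reported, and counts with a block are given below.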

Additional observations from a re-analysis of the deposited data

How the results depend on the processing

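Against 8 member calls between genotypes in LT-HSC, each refit's own total was 5 with total-count scaling, 5 with a loess offset, 3 with the gene-end covariate, 5 with body overlap alone and 2 at an adjusted p under 0.01; leaving out 1 library gave 2 to 9, with 5, 2 and 5 without KO LT-HSC replicate 1, 2 and 3. Against 12 in MPP, the totals were 7 with DESeq2 (4 weak regions had no adjusted p there, and 1 at Gadd45a lost its call), 3 with the covariate, 5 with body overlap alone, 7 within 10 kb and 3 at 0.01; leaving out 1 library gave 3 to 14, with 7 without WT MPP replicate 2 or 3, 4 without KO MPP replicate 2 and 3 without KO MPP replicate 3. The interaction, with 0 calls, gave 1 with DESeq2, total-count scaling, a loess offset and the replicate block, and 0 to 0 on leaving out 1 library. Between populations, body overlap alone gave 15 and within 10 kb 39 of the 69 calls in WT (65 to 69 on leaving out 1 library), and 14 and 38 of the 68 in KO (64 to 70). These 2 assignment choices and the stricter threshold count fewer regions by construction. For the other changes the cause was not tested. Calls over all regions fell as well, in LT-HSC from 8834 to 1843 with the covariate and to 3404 without KO LT-HSC replicate 2. In MPP they fell from 16230 to 5614 with the covariate and to 6435 without KO MPP replicate 3. For single named regions, 144 refits kept a call in LT-HSC and 31 lost it, 202 kept and 57 lost it in MPP, and none of these reversed. These counts include refits that left out a library of the other population, which takes none from the compared groups. The Sesn2 region 4.48 kb upstream lost its call between populations in KO with the covariate, at a log2 fold change that rounds to 0.00 (adjusted p = 0.998) and so gives no direction.

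The replicate block, which uses the number in the titles, gave 9 member calls in LT-HSC, 15 in MPP, 69 in WT and 69 in KO between populations. Same-numbered libraries had correlations of their deviations from -0.0367 to 0.0330 across genotype and 0.0536 to 0.114 across population. Across population each library correlated best with its own number, a hint from the data and not from the design. Counts under about 1 CPM carry few reads, so regions at that level are the least precise here.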

Other observations

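Cdkn1a encodes p21, the p53 target that blocks cyclin-dependent kinases, and its regions were looked at after their values were seen. It is in the wider pathway list, with 14 tested regions. Its start region (chr17:29093497-29093948) held 14.5 ± 0.935 CPM in WT and 13.4 ± 1.59 in KO LT-HSC, and 17.0 ± 0.674 and 16.6 CPM in MPP (means, SD over 3 libraries where given), and passed in neither genotype comparison (edgeR adjusted p = 0.491 and 0.827). In LT-HSC a region 8523 bases from the gene (chr17:29081943-29082456) was higher in KO, at 12.8 ± 1.40 against 9.48 ± 1.42 CPM (log2 0.44 ± 0.10, adjusted p = 0.0116). A weak region at chr17:29106149-29107772 was lower, at 0.916 ± 0.179 against 1.88 ± 1.01 CPM (adjusted p = 0.0416). In MPP a region in the gene body (chr17:29094320-29095100) was higher in KO, at 13.9 ± 2.08 against 10.7 ± 1.09 CPM (log2 0.37 ± 0.10, adjusted p = 0.0153). Between populations in WT, the body region at chr17:29098968-29099403 rose from 4.53 ± 0.700 to 11.7 ± 1.48 CPM (log2 1.36 ± 0.12, adjusted p = 9.58e-12).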
